A study of Mus musculus with 4 samples.

Results

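The CArG box is the DNA element bound by serum response factor (SRF), and it reads 2 C, 6 bases that are each A or T, and 2 G. Peaks of open chromatin were collected here when the 300 bp centred on the summit of the peak held at least 1 perfect CArG box. The reverse complement of a CArG box is again a CArG box, so that a search of either strand finds all of them. On chromosomes 1 to 19, 624 of 20655 peaks of the control female library and 1240 of 40483 peaks of the VEDS male library had a box in this window. These are 3.02% (95% Wilson interval 2.80 to 3.26) and 3.06% (2.90 to 3.24), and such intervals cover counting error only. The window can reach beyond the peak. Of the 639 control female and 1268 VEDS male boxes, 90 and 144 lay in a window but outside the called peaks.

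Open chromatin was mapped by ATAC-seq, in which the transposase Tn5 inserts adapters preferentially into accessible DNA. Nuclei of aortic tissue from control mice (Col3a1+/+) and from mice carrying 1 mutant allele of the collagen gene Col3a1 (Col3a1G938D/+, the model of vascular Ehlers-Danlos syndrome, VEDS) were taken at 60 days of age, and each library pooled tissue from 2 mice of the same genotype and sex. A single-cell ATAC kit was used, but the fragments of a library were analyzed together, so that no cell type was separated. Each genotype was represented by 1 female and 1 male library, and the peaks of the control female and VEDS male libraries are described here. Genotype, sex and library depth cannot be told apart between these lists, and no test was made between them.

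SRF is present in most cells, and its partners decide which genes it drives. With myocardin and with the myocardin-related factors (MRTF), the latter released when actin polymerizes, it drives the contractile genes of smooth muscle and many genes of the cytoskeleton. With the ternary complex factors, ETS proteins that respond to MAP kinase signaling, it drives immediate-early genes such as Fos and Egr1 within minutes of a growth stimulus.

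The lists held 21176 peaks (control female), 41444 (VEDS male), 1236 (control male) and 504 (VEDS female) on all chromosomes. The median number of fragments at a summit was 14, 22, 7 and 6 in these lists. Of 7 smooth muscle marker genes, 6 (control female) and 7 (VEDS male) had a promoter peak. Promoter peaks were also found in these lists for 1 and 3 of 5 endothelial, 3 and 2 of 5 fibroblast, 0 and 1 of 5 immune, 1 and 3 of 4 adipocyte and 0 and 1 of 5 striated muscle markers. None of the 31 markers had one in either short list. In such bulk data, fewer cells of a type and less accessible DNA per cell cannot be told apart.

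Representative boxes at smooth muscle genes are printed 5′ to 3′ on the strand of the gene, with 15 bases on each side from the mouse reference GRCm38 (mm10), to show the letters on which the counts below rest. Capitals mark the CArG box. Each of these lay in a window of both lists and within 3 kb of a start of a coding transcript of its gene, except for the Acta2 box, which is distal and was added after its values were seen. The Tagln box overlaps an annotated 5′ UTR and is printed with 10 bases on each side.
Acta2 (− strand, chr19:34265819-34265858): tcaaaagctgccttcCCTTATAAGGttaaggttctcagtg
Tagln (− strand, chr9:45936028-45936057): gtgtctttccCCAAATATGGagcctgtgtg
Cnn1 (+ strand, chr9:22100111-22100150): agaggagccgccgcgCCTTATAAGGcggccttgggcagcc
Myl9 (+ strand, chr2:156775288-156775327): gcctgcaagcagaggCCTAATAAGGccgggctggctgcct
Myl6 (− strand, chr10:128493035-128493074): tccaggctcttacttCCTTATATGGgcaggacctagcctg
Tpm4 (+ strand, chr8:72136817-72136856): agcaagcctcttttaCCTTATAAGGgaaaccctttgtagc
Vcl (+ strand, chr14:20929156-20929195): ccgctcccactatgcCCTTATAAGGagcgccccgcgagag
Tln1 (− strand, chr4:43558730-43558769): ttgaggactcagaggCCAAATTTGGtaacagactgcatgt
Actn1 (− strand, chr12:80258811-80258850): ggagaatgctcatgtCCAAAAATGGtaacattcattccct
Fhl2 (− strand, chr1:43163968-43164007): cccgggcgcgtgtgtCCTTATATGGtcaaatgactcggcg
Pdlim5 (− strand, chr3:142394814-142394853): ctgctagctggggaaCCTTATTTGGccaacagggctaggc

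The same box letters, CCTTATAAGG, occurred at Acta2, Cnn1, Tpm4 and Vcl. Around the Vcl box, the whole control female window shows a single CArG box in GC-rich promoter sequence. Vcl encodes vinculin, which links actin to cell adhesions, and its promoter peak ranked highest among the members at smooth muscle genes.
Vcl window (control female list, + strand, chr14:20928988-20929287): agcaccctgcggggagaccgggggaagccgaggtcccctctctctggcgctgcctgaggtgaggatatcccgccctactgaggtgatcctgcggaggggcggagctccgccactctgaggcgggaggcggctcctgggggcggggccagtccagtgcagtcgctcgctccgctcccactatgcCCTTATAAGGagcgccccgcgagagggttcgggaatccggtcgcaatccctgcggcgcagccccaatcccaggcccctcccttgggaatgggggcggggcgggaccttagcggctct

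At immediate-early genes, some of the boxes near the start are printed in the same way. The Fos promoter box was added after its values were seen, since it lay in a control female window alone, whereas the others lay in windows of both lists. The Dusp5 and Srf lines each hold a pair of boxes.
Ccn1 (− strand, chr3:145651879-145651918): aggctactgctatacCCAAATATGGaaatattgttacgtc
Fos (+ strand, chr12:85473566-85473605): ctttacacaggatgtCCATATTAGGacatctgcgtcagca
Fosb (− strand, chr7:19310293-19310332): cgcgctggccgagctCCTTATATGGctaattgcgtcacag
Junb (− strand, chr8:84980144-84980183): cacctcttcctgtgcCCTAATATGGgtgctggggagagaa
Junb (− strand, chr8:84976609-84976648): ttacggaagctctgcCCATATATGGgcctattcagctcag
Dusp5 (+ strand, chr19:53529048-53529097): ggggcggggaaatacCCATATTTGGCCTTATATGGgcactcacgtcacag
Srf (− strand, chr17:46556200-46556259): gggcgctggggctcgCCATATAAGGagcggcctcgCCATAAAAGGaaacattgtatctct

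The Fos box is the serum response element, with the letters CAGGAT, a known ETS site, 2 bases before it. The Fos and Fosb boxes were both followed after 5 bases by TGCGTCA. Within 20 bp of a box, TGCGTCA on either strand was found at 3 of the 1364 distinct boxes of the members, the third being near Tubd1 at 8 bp, and at 0.0429% of the 144669 boxes on chromosomes 1 to 19. This motif was chosen after the sequences were seen. The whole Fosb window is shown for comparison with that of Vcl.
Fosb window (control female list, − strand, chr7:19310189-19310488): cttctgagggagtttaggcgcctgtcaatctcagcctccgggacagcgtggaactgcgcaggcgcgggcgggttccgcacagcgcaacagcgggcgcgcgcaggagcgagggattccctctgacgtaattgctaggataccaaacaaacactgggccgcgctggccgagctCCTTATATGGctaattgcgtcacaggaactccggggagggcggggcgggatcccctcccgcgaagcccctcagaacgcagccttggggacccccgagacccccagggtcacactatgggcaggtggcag

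To see how often other DNA holds a box, the genome and the flanks of the peaks were searched in the same way. In the genome cut into tiles of 300 bp, 1.74% held a box, and among the 31396 RefSeq promoters of 300 bp on chromosomes 1 to 19 (GRCm38.p6) the share was 1.57% (1.44 to 1.72). Moving each window by 1 kb to the left or right gave 1.49% and 1.68% for the control female list, and 1.58% and 1.63% for the VEDS male list. Shares at the summits were thus higher than beside the same peaks, and their intervals did not overlap. The reversed pattern, with GG before and CC after the 6 bases, has the same composition as the CArG box and is also its own reverse complement. It was held by 1.79% of the genome tiles, and by 1.16% of the control female and 1.17% of the VEDS male windows. These tiles were not matched to the windows in base composition. This comparison was added after the data were seen.

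Boxes gathered at the summit itself. Within 50 bp of the summit, distal peaks had 9.22 boxes per 1000 peaks per 50 bp in the control female list and 9.66 in the VEDS male list. At 500 to 1000 bp from the summit the values were 2.62 and 2.67, with a genome mean of 3.02. Promoter peaks, which reach within 3 kb of the start of any annotated transcript, had 4.49 and 4.80 at the summit and 2.93 and 2.75 farther away.

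**Figure D1:**
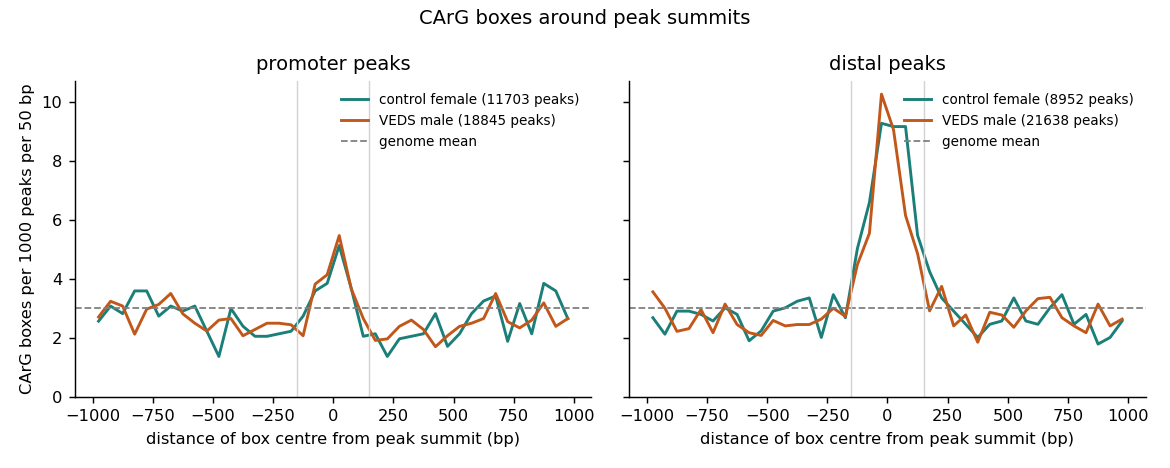
CArG boxes per 1000 peaks per 50 bp against the distance of the box from the peak summit in bp, for promoter (left) and distal (right) peaks of the control female and VEDS male lists. Grey lines mark the 300-bp window and the dashed line the genome mean of 3.02. Distal peaks rise to more than 9 at the summit and promoter peaks to about 5.

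The shares were also compared at equal base composition. The median GC content of members was 50.3% (control female) and 49.0% (VEDS male), against 56.0% and 53.0% for all windows. When the genome tiles were weighted to the GC content of the windows in bins of 5 percentage points, 1.10% and 1.21% of tiles held a box. Weighted in the same way, 0.878% and 0.995% of tiles held the reversed pattern. This was below its shares in the windows, 1.16% (1.02 to 1.32) and 1.17% (1.07 to 1.28). At a GC content of 45% to 50%, a box was held by 4.55% of control female windows (3.88 to 5.33), 4.30% of VEDS male windows (3.88 to 4.76) and 1.64% of tiles. At 70% and over, the shares were 0.818%, 0.816% and 0.452%.

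**Figure D2:**
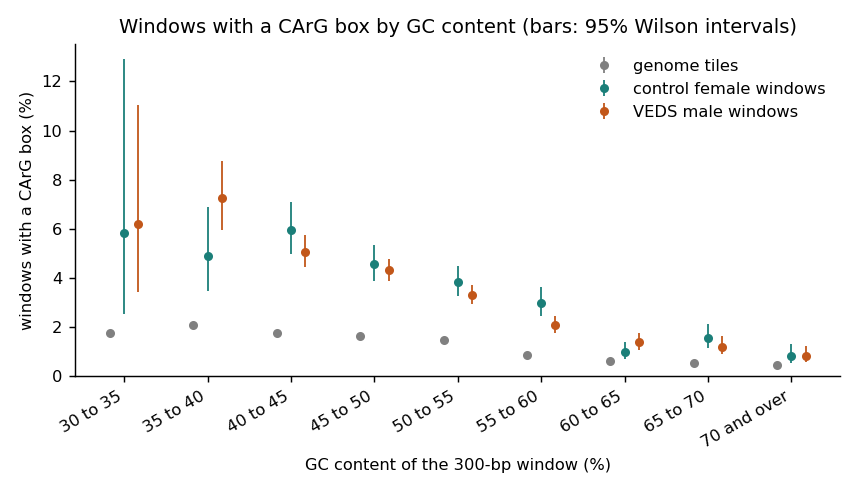
Share of 300-bp windows with a CArG box in percent against their GC content, for genome tiles (grey), control female windows and VEDS male windows. Points are shares and bars 95% Wilson intervals. Both lists lie above the tiles in each bin shown, by wider margins below 60% GC than above.

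Most members were distal. A promoter peak made up 37.8% of the control female members (34.1 to 41.7) and 32.0% of the VEDS male members (29.5 to 34.7), whereas 56.7% and 46.6% of all windows were at promoters. Put the other way, a box was held by 2.02% of promoter and 4.33% of distal windows in the control female list, and by 2.11% and 3.90% in the VEDS male list. Of the distal members, 54.4% and 56.6% had the summit in an intron and 44.6% and 40.5% between genes, near the values for all distal windows (52.0% and 53.8%, and 45.0% and 42.5%). The promoter share was 26.4% and 19.8% when only starts of coding transcripts counted.

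The members of the lists together held 1364 distinct boxes, which is 0.943% of the boxes on chromosomes 1 to 19. Only 4.55% of these boxes lay in bases masked as repeats, against 23.9% of all boxes of the genome. The median distance to the nearest start of a coding transcript was 20099 bp. There were 207 boxes within 1000 bp of such a start, of which 151 lay upstream, and 373 boxes over 50 kb away.

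All 36 forms of the box (a form and its reverse complement taken as the same) occurred. The form most often found was CCAAATAAGG, with 126 of 1364 boxes (9.24%, against 3.86% of the boxes of the genome). Relative to its number in the genome, CCTTATAAGG was found most often, with 47 of its 1648 genome copies in a member (28.5 per 1000, against 9.43 per 1000 for all forms). CCATATAAGG followed with 23.1 per 1000 and CCAAATAAGG with 22.6. At the other end, CCTATATAGG and CCAATATTGG each had 1 box in a member, although the genome has 1057 and 1444 copies. Both are palindromes, as is CCTTATAAGG.

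Other motifs were counted in the same windows. The ETS motif CCGGAA, on either strand, was held by 11.9% of the control female promoter members and 26.2% of all promoter windows, and by 11.6% and 21.1% in the VEDS male list. The SP motif GGGCGG was held by 41.5% against 61.3%, and by 33.5% against 51.4%. Promoter members had a lower GC content (median 55.3% against 62.0%, and 53.3% against 59.7%), and its part in these differences was not tested. The TEAD motif GGAATG was more frequent, with 19.9% against 13.2% and 19.4% against 14.6%, with intervals of members and all promoter windows that did not overlap in either list. The MEF2 motif was held by 4.66% against 2.67% and by 5.29% against 3.17%, where the intervals overlapped in the control female list (2.62 to 8.15 for members). RefSeq promoters are 300-bp sequences taken without regard to peaks, whereas the promoter windows are summits of peaks within 3 kb of any transcript start. For comparison, 15.1%, 36.0%, 14.6% and 3.10% of the RefSeq promoters hold the ETS, SP, TEAD and MEF2 motifs. Among the 494 RefSeq promoters that hold a CArG box these were 10.1%, 27.5%, 14.8% and 4.66%, so that the TEAD share was no higher there beyond its interval (11.9 to 18.2). Among distal windows, TEAD motifs were held by 26.3% of members and 24.5% of all windows (control female), and by 27.0% and 22.9% (VEDS male). MEF2 motifs were held by 9.28% of distal members and 9.36% of all distal windows in the control female list, and by 8.30% and 8.14% in the VEDS male list. Distal AP-1 sites (TGAGTCA or TGACTCA) were held by 16.8% of members and 18.9% of all windows in the control female list, and by 14.0% and 15.6% in the VEDS male list, within the intervals of the members.

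The presence of members in the other list was counted beside that of all peaks. Of the 624 control female members, 605 overlapped a VEDS male peak by at least 1 bp, which is 97.0% (95.3 to 98.0), against 95.2% of all control female windows. Of the 1240 VEDS male members, 600 overlapped a control female peak, which is 48.4% (45.6 to 51.2), against 47.6% of all VEDS male windows. Members at promoters and all promoter windows of the VEDS male list had similar shares (58.9% and 59.5%). Distal members of the VEDS male list overlapped more often than all its distal windows, with 43.4% (40.1 to 46.8) against 37.3% (36.6 to 37.9). The same held for distal members of the control female list, with 96.1% (93.7 to 97.6) against 92.2% (91.7 to 92.8). The distal members also had a higher median −log10 q (10.9 against 8.59 in the VEDS male list and 7.04 against 6.55 in the control female list), and its part was not tested.

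The share fell with the rank of the peak. When the VEDS male list was divided by −log10 q into 5 parts of equal size, 97.9%, 76.2%, 37.7%, 14.4% and 5.80% of the members overlapped a control female peak, from the strongest to the weakest part. For all windows these were 97.7%, 75.2%, 39.5%, 18.1% and 7.52%. The control female members had shares of 100% to 90.2%, against 100% to 81.7% for all windows.

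**Figure D3:**
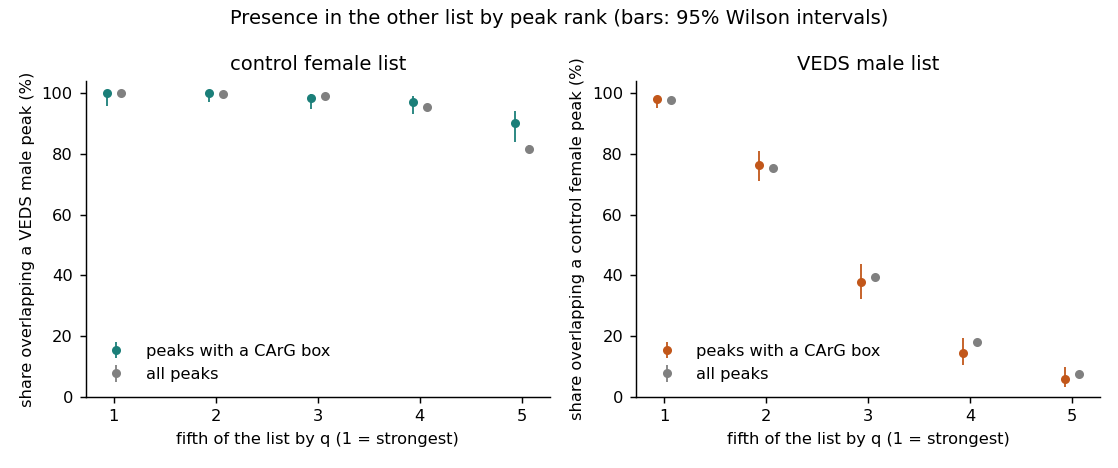
Share of peaks that overlap a peak of the other long list in percent, by part of the list from the strongest (1) to the weakest (5) −log10 q, for the control female list (left) and the VEDS male list (right). Colored points are peaks with a CArG box and grey points all peaks, with 95% Wilson intervals. In the VEDS male list both fall from about 98% to under 10%.

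The same box lay in windows of both lists for 85.0% of the control female boxes and 42.8% of the VEDS male boxes. Of the 1364 boxes, 543 lay in a window of both lists, 96 in a control female window alone and 725 in a VEDS male window alone. For 77 of the 96, the control female peak still overlapped a VEDS male peak, whose summit lay elsewhere, and 19 had no VEDS male peak. For 71 of the 725 a control female peak overlapped, and for 654 there was none. In the boxes found in both, the summits of the lists were a median of 31 bp apart. A region without a peak was not taken as closed, since the lists differ in depth.

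The short lists overlapped few members. A control male peak overlapped 10 control female members (2.44% of all control female windows had one) and 13 VEDS male members (1.55% of all VEDS male windows). A VEDS female peak overlapped 7 and 10 members, where the shares of all windows were 1.87% and 1.02%. None of the members at the gene lists described next overlapped a peak of a short list.

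Members at 5 lists of genes were then counted. A member was given to a gene when the start of its coding transcripts was the nearest to the summit, or when the summit lay between 5 kb upstream of the gene and its end. By this rule, 30 of the 43 smooth muscle genes on chromosomes 1 to 19 had a member in either list, 17 of 36 immediate-early genes, 10 of 20 genes of the actin cytoskeleton, 3 of 9 regulators of SRF targets and 1 of 13 genes of striated muscle. Of all 20780 coding genes on these chromosomes, 5.93% (5.62 to 6.26) had one. Genes with many peaks have more chances to hold a member, so the shares were also taken over windows.

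Of the 196 control female windows at smooth muscle genes, 40 held a box, which is 20.4% (15.4 to 26.6). In the VEDS male list, 53 of 424 windows did, which is 12.5% (9.68 to 16.0). Moved by 1 kb to the left and right, the same windows held a box in 2.55% and 3.57% (control female) and in 1.89% and 3.54% (VEDS male). At immediate-early genes the shares were 10.9% (6.92 to 16.8) and 9.54% (6.64 to 13.5), and at genes of the actin cytoskeleton 14.9% (8.95 to 23.9) and 11.8% (7.75 to 17.5). At the regulators, 3.39% of 59 and 2.83% of 106 windows held one, near the shares of all windows. Apart from the list of regulators, the lists hold known targets of SRF. All 5 lists were chosen with results of these data known, so these shares are a description.

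**Figure D4:**
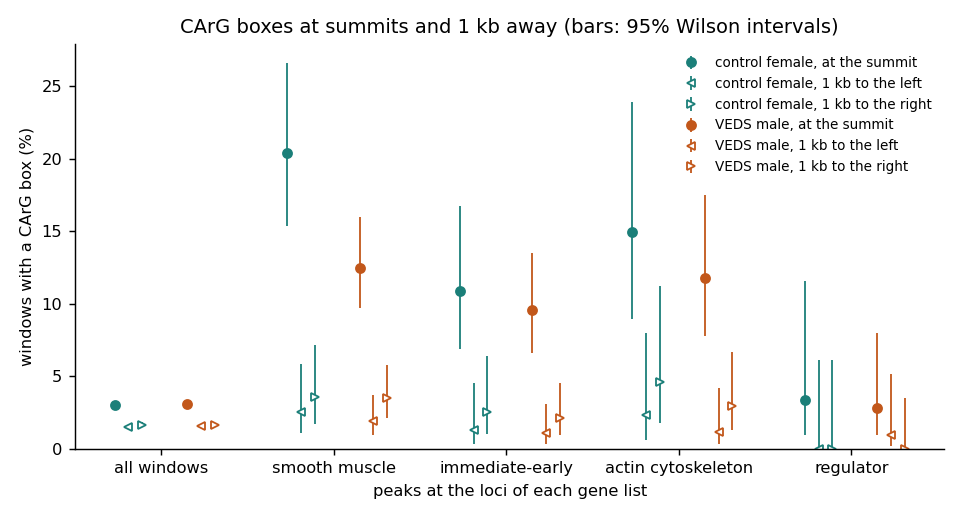
Share of windows with a CArG box in percent, for all windows and for windows at the genes of 4 lists, in the control female and VEDS male lists. Filled points are windows at the summit, open triangles the same windows moved by 1 kb to the left or right, and bars 95% Wilson intervals. Smooth muscle windows reach 20.4% and 12.5%, while moved windows stay below 5%.

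Members at smooth muscle genes held 58 distinct boxes at 30 genes, 36 of them in introns and 18 upstream of the gene. There were 38 boxes in windows of both lists, 4 in a control female window alone and 16 in a VEDS male window alone. For all 1364 boxes of the members these numbers were 543, 96 and 725. The boxes at smooth muscle genes lay at a median of 20426 bp from a start of the gene, and 13 lay within 1000 bp. Of the 53 boxes outside chromosome 18, 8 had the form CCATATAAGG and 6 the form CCTTATAAGG.

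Among genes of the contractile filaments, Acta2, which encodes smooth muscle α-actin, had a box at −10248 bp in both lists (negative positions lie upstream of the nearest start of a coding transcript of the gene). Its peak ranked 4158 of 21176 in the control female list (−log10 q 16.8, 23 fragments at the summit) and 2369 of 41444 in the VEDS male list (54.6, 76 fragments). A further box at −16166 bp lay in a VEDS male window alone. Acta2 had 1 promoter peak in the control female list and 2 in the VEDS male list, none with a perfect box. All of these had a box when 1 mismatch was allowed, as did 22.2% and 23.1% of all windows. Myh11, the smooth muscle myosin heavy chain, had boxes only in VEDS male windows, at −953 bp (rank 26914) and in an intron at 29463 bp (rank 20461). No control female peak overlapped either of these peaks. The control female list had 2 other promoter peaks at Myh11, neither with a perfect box and 1 with a box when 1 mismatch was allowed.

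Tagln, which encodes the actin-binding protein SM22α, had a pair of boxes at −107 and 16 bp. Both lay in the control female window (rank 7403). The VEDS male window (rank 5332) held the box at 16 bp, and the other lay inside that peak but 227 bp from its summit. Cnn1 (calponin) had its box at −62 bp, in peaks of lower rank (15521 and 18287). Myl9, the regulatory light chain of myosin, had one at −113 bp, in peaks that ranked 4811 and 2085. Tpm2 and Cald1, which encode a tropomyosin and caldesmon, had a box at −618 and −247 bp in a control female window alone. In both cases a VEDS male peak lay over the box, with its summit 148 and 186 bp away.

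Mylk, which encodes myosin light chain kinase, had 4 boxes in introns, of which 3 lay in windows of both lists. The strongest of these in the VEDS male list, at −73456 bp, ranked 1183 there (100 fragments) and 8878 in the control female list (22 fragments), where the box at −36037 bp had the strongest peak (rank 5733, 23 fragments). Smtn (smoothelin) had boxes at −24146 and −34866 bp in windows of both lists, but the control female peak did not reach the box at −24146 bp. Lmod1, the actin nucleator leiomodin, had an intronic box in both lists, with ranks of 8769 and 8437.

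At genes of adhesions and of the Z-disc and dense bodies, Vcl stood first. The box at −223 bp lay in a peak of rank 524 in the control female list (−log10 q 34.5, 46 fragments) and of rank 216 in the VEDS male list (94.3, 117 fragments). Another 2 boxes lay at −37311 and −35472 bp, both in windows of both lists, but the control female peak did not reach the box at −35472 bp. Tln1 (talin) had a box at −289 bp, Fhl2, a LIM protein, at −26 bp, and Actn1 (α-actinin) in introns at 1261 and 51406 bp. The Fhl2 peak was among the weakest of the control female list (rank 20991, 5 fragments).

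Csrp1, a LIM protein of smooth muscle, had 3 intronic boxes, and 2 of them lay 118 bp apart in the same window of both lists (ranks 3448 and 6629). Pdlim5 also had 3 boxes in both lists, at 745, 32656 and −44060 bp. Itga8 and Itga9, which encode integrin α subunits, had 3 and 4 boxes. Of the Itga8 boxes, 1 at −53706 bp was in a control female window alone. The control female peak there overlapped a VEDS male peak, but the VEDS male peak did not reach the box. Among the channels and regulators of contraction, Cacna1c (the L-type calcium channel), Ppp1r12b (a subunit of myosin phosphatase) and Jph2 (junctophilin) had boxes only in VEDS male windows, 5 in all. These genes had 14, 6 and 6 control female windows, none with a box. Over the whole VEDS male list, only 47.6% of windows overlapped a control female peak.

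The 16 boxes at smooth muscle genes in VEDS male windows alone had no control female peak on their member. Their VEDS male peaks had a median rank of 21070 and a median of 27 fragments, against 8334 and 54 for the 38 boxes in both. Of the smooth muscle genes without a member, Des (desmin), Actg2 (smooth muscle γ-actin) and Zyx (zyxin), chosen after their values were seen, had 5, 2 and 4 VEDS male windows, none with a perfect box. With 1 mismatch allowed, 37 of the 43 genes had a box in a promoter peak of the VEDS male list, against 15 with a perfect box, but 23.1% of all windows of this list then held one.

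**Figure D5:**
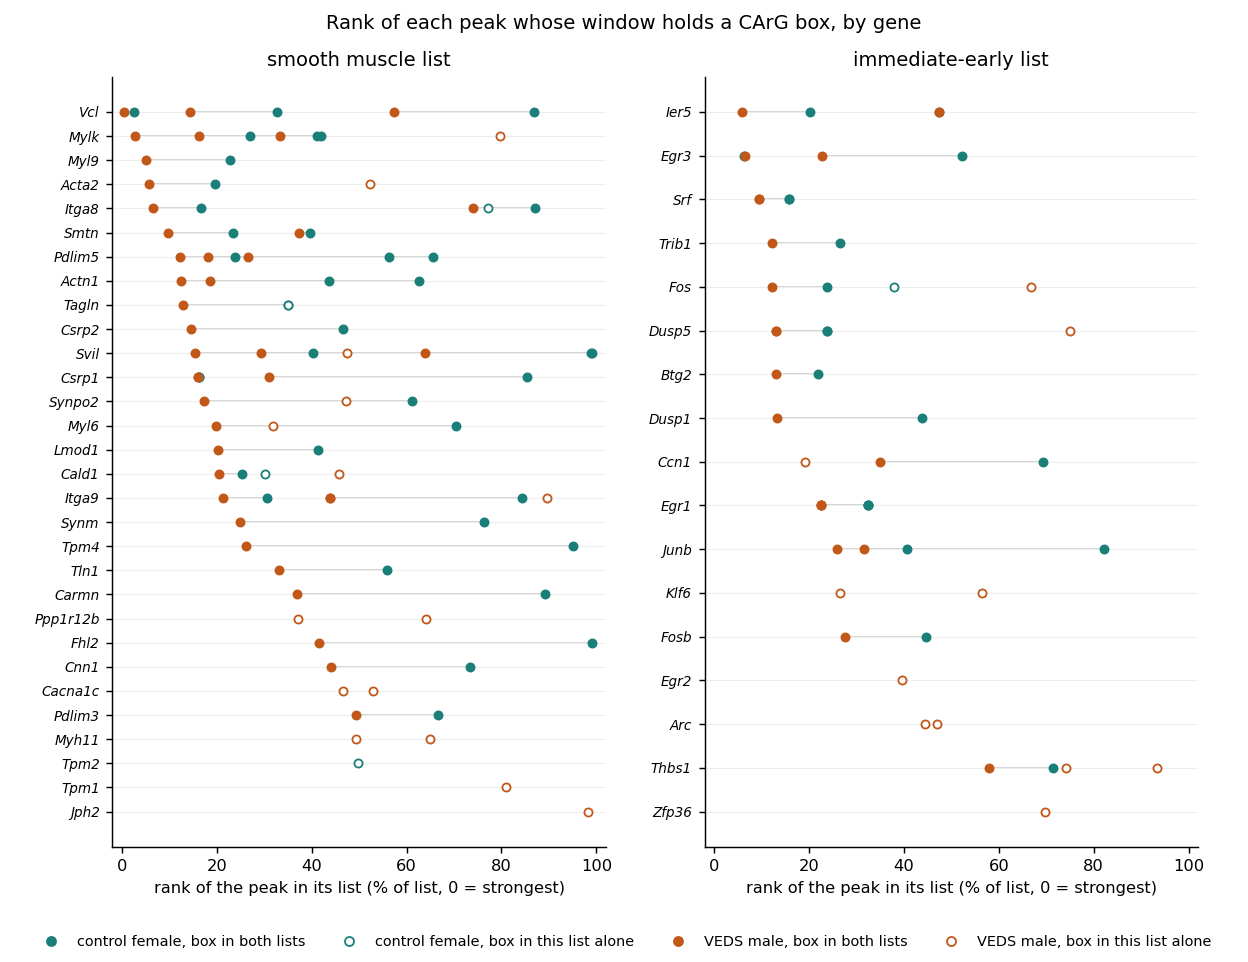
Rank of each peak whose window holds a CArG box, as a percentage of its list (0 is the strongest), for genes of the smooth muscle list (left) and the immediate-early list (right). Filled points are boxes in windows of both lists, joined by a line, and open points are boxes in a window of 1 list. Vcl has the strongest peak in both lists, and open points of the VEDS male list lie mostly beyond 40%.

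Members at immediate-early genes held 32 distinct boxes at 17 genes, with 20 in windows of both lists, 1 in a control female window alone (the Fos promoter) and 11 in VEDS male windows alone. For all 1364 boxes of the members these numbers were 543, 96 and 725. The immediate-early boxes lay nearer to a start than those at smooth muscle genes, at a median of 2151 bp, and 13 were within 1000 bp. An ETS core (GGAA or GGAT on either strand) lay within 20 bp of 24 of the 32 boxes, which is 75% (57.9 to 86.7). This was 51.7% (39.2 to 64.1) at smooth muscle genes, 48.5% (45.9 to 51.2) for all boxes of the members and 46.9% for all boxes of the genome. The intervals of the immediate-early and smooth muscle boxes overlapped. Neighbouring boxes, as at Egr1, Dusp5 and Srf, share flanks and are not independent counts.

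Of the AP-1 genes, Fos had the promoter box at −305 bp, a box at 12228 bp in both lists and a box at −10856 bp in a VEDS male window alone. The downstream peak ranked higher in both lists (5062 and 5087) than the promoter peak did in the control female list (8029). A VEDS male peak of rank 8241 lay over the promoter box, with its summit 240 bp away. Fosb had its box at −261 bp, in peaks that ranked 9437 and 11437. Junb had boxes at −1445 and 2090 bp in both lists.

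The EGR genes encode zinc finger factors of the early response. Egr1, on chromosome 18, had 3 boxes 38 and 16 bp apart from start to start, in the same window of both lists (ranks 6884 and 9301). No other window of these lists held 3 boxes. Egr3 had a box at −11086 bp in its strongest peak (ranks 1329 and 2665). Egr2 had a box at −68 bp in a VEDS male window alone (rank 16397).

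Srf itself had 2 boxes, at −44 and −64 bp and 20 bp apart, in peaks that ranked 3356 and 3950. Dusp5, a phosphatase of ERK, had 2 boxes directly side by side at −42 and −32 bp, in peaks that ranked 5022 and 5401. Ccn1, a matricellular protein and target of MRTF and YAP, had a box at −1917 bp in both lists and one at −3473 bp in a VEDS male peak of rank 7975. This was the strongest peak among the 11 immediate-early boxes without a control female peak. Ier5, Btg2 and Trib1 had distal boxes in both lists, and Arc, Klf6 and Zfp36 had boxes in VEDS male windows alone. Control female windows at Arc, Klf6 and Zfp36 numbered 1, 15 and 3, none with a box. The box given to Dusp1 is at the start of the neighbouring gene Ergic1, inside a long annotated transcript of Dusp1.

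At genes of the actin cytoskeleton there were 21 boxes at 10 genes, 14 in windows of both lists and 7 in VEDS male windows alone. Over all members, 42.8% of the boxes in VEDS male windows lay in windows of both lists. Actb (β-actin) had 4 boxes, with 1 at −28 bp in both lists (ranks 5500 and 7547). Myh9, the nonmuscle myosin heavy chain, had 3 intronic boxes, of which 2 lay in windows of both lists, and Palld (palladin) had 2 in both. The Actb box at −31 bp and the Myh9 box at 25992 bp lay in VEDS male windows alone. A control female peak still lay over each (ranks 12006 and 16338), with its summit 203 and 148 bp away. A pair of boxes 58 bp apart, upstream of Cfl1 (cofilin), lay at the start of the neighbouring gene Mus81. Among the regulators, Mrtfb had a box at −15998 bp in both lists (ranks 20286 and 15806), and Myocd, which encodes myocardin, had one at −79380 bp in a VEDS male window alone (rank 18605). Of the striated muscle genes, Ryr2 alone had a member, in an intron.

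The members of highest −log10 q were at promoters, mostly of genes outside these lists. In the control female list they were at Desi2, Ppm1b, Hdgfl2, Rnf34 and Top1, with −log10 q of 37.0 to 54.2. In the VEDS male list they were at Desi2, Vcl, Arrdc4, Tmem87b and Ppm1b, with 88.3 to 119. Desi2 thus led both lists, with ranks of 76 and 74, and Vcl was the only gene of the lists above among them.

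Control female members without a VEDS male peak numbered 19, of which 15 were distal, and their median −log10 q was 4.12. The strongest were near Gm1113 (rank 9877), in Nav2 (11567), at Slc16a11 (15888) and near Lsm3 (15944) and Tes (16245). Their summits held 8 to 13 fragments. VEDS male members without a control female peak numbered 640, with 477 distal and a median −log10 q of 7.07. The strongest were in Kcnab1 (a potassium channel subunit, rank 6137) and B3galt1 (6531), at Atf7ip (6614), near Mgst2 (7526) and upstream of Ccn1 (7975).

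Several boxes fell in 1 window in 14 control female and 27 VEDS male members. Beside Egr1, the strongest pairs were at Srf, Csrp1, Plb1 and Dusp5 in the control female list, and near Fads1, Emid1, Plb1 and Srf in the VEDS male list. The distance from start to start was 10 to 123 bp in the former and 10 to 248 bp in the latter. By the nearest start of a coding transcript, 922 genes had 1 box, 148 had 2, 36 had 3, 7 had 4 and 2 had 5.

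The genes with 5 were Mbnl1, a splicing regulator, and Itpr1, an IP3 receptor. All 5 boxes of Mbnl1 lay in windows of both lists, from −162239 to 542 bp, and their VEDS male peaks ranked from 5802 to 25972. Of the Itpr1 boxes, 2 lay in windows of both lists. The genes with 4 were Mylk, Svil, Thsd4, Tns1, Lpp, Actb and Ppp1r12a. Lpp encodes a LIM protein of adhesions, and its box at −111151 bp was in peaks of rank 1215 and 844. The 4 boxes of Ppp1r12a, the targeting subunit of myosin phosphatase, all lay in VEDS male windows alone, in peaks of rank 12621 to 31042. Of all boxes in VEDS male windows, 42.8% lay in windows of both lists.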

How the data were processed

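The authors mapped the reads to mm10 and used MACS2 in its narrow-peak mode, after removing duplicates within barcodes and correcting for the Tn5 cut position. Blacklisted regions had been taken out. The aligner is not given in the sources used here. Each deposited list holds, per peak, a score, the fold enrichment at the summit (a ratio to the local background), and −log10 p and −log10 q, all computed by the authors. These values were used only within a list. Fragment numbers at summits were taken as the integer whose Poisson tail matches the deposited −log10 p within 0.2% at the deposited fold enrichment, which succeeded for 99.2% to 99.9% of peaks.

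Windows of 300 bp around each summit were read from GRCm38.p6, the build of mm10, and searched for CArG boxes on chromosomes 1 to 19. The search was tested on simulated sequences. Peaks were annotated with GENCODE vM21. A promoter peak reached within 3 kb of the start of any transcript. Shares have 95% Wilson intervals, and no test was made, since there was 1 library per genotype and sex. The members and the gene lists were chosen with earlier results of these data known, and the reversed pattern and TGCGTCA were added after the data were seen. Genes named are those of the 5 lists with a member, the 5 members of highest −log10 q of each list, the 5 of highest −log10 q without a peak in the other long list, the genes with most boxes and the windows with most boxes. The alternatives were −log10 q of at least 5 or 10, equal list size, other windows, 1 mismatch and boxes outside masked bases. Further ones were other definitions of promoter, overlap and nearest gene, and the lists of a genotype added together. Scripts ran in Python 3.11.15 (scipy 1.17.1, pandas 2.3.3, numpy 2.4.6, matplotlib 3.10.9).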

Additional observations from a re-analysis of the deposited data

Results flagged for a closer look

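CArG boxes were also found in peaks outside the comparisons above, in numbers over the limit of 3 that a count of 0 allows. This limit does not measure an excess of boxes, since 1.74% of the genome tiles of 300 bp also held a box. The intervals below include that share, except for the VEDS male windows on chromosome X. In the control male list, 26 of 1081 windows on chromosomes 1 to 19 held a box (2.41%, 1.65 to 3.50). Of these 26, 24 windows had more than 50% of their bases masked as repeats, and so had 708 of all 1081. In the VEDS female list, 9 of 468 windows held one (1.92%, 1.01 to 3.61), 3 of them with more than 50% of bases masked. On chromosome X, 13 of 458 control female windows (2.84%, 1.67 to 4.80) and 38 of 836 VEDS male windows (4.55%, 3.33 to 6.18) held a box. They included windows at Dmd in both lists and at the smooth muscle genes Flna and Fhl1 in the VEDS male list.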

How the results depend on the processing

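Among the recomputed values, 21 stayed within 1.5 times the reported count or within the 95% interval of the reported share, and 23 moved. At equal list size the control female count and promoter share could not change, since that list sets the size. Adding the short list of the same genotype, without merging peaks, gave 650 (control) and 1249 (VEDS) members. The short lists held only 26 and 9 members, so these counts could not move by 1.5 times either. Raising the threshold to a −log10 q of 10 left 233 control female and 708 VEDS male members, with promoter shares of 46.8% and 36.4%, against 73.5% and 57.7% for all windows at that threshold. Overlap shares became 99.6% of control female and 33.2% of VEDS male members at 10, and 98.3% and 44.3% at 5. For all windows they were 99.0% and 38.7% at 10, and 97.9% and 46.9% at 5. The VEDS male share of members was thus the lower at both thresholds, whereas it was 48.4% against 47.6% in the full list, and these differences were not tested. At equal list size, with 20655 peaks each, the VEDS male list had 669 members (3.24% of its windows), 37.4% at promoters, and the overlap shares were 82.5% and 77.1%, against 79.7% and 77.7% for all windows. With 1 mismatch allowed, 4577 and 9359 windows and 33 immediate-early genes had a box. Promoter shares were 29.6% and 21.9% within 1 kb, and 26.4% and 19.8% for coding transcripts alone. When the overlap had to cover 50% of both peaks, 65.1% and 33.0% of members overlapped, against 67.2% and 34.3% of all windows, and the same box lay in a window of the other list for 85.3% and 42.9%. No paired analysis was possible because the values are counts from lists called separately in each library and come from no test, and the lists of control male and VEDS female hold only 1236 and 504 peaks. The median number of fragments at a summit was 22 (VEDS male) and 14 (control female), which limits the precision of each peak.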
